A study of Mus musculus with 10 samples.

Results

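Translation initiation factor genes were taken by symbol. They are the 55 of 32531 listed genes whose name begins with Eif and a digit from 1 to 6, with pseudogene entries left out. Of these, 52 had a mean of at least 1 CPM (reads of a gene scaled to a fixed total of gene reads per library) over the 10 libraries and are described here. The other 3 were Eif4e1b and Eif4ebp3, which had 0 reads in every library, and Eif4ebp1. Eif4ebp1, which encodes a cap-complex repressor, had 0 to 4 reads in each library of immunopurified RNA, 11 reads in total RNA and 8 reads in unbound RNA. Nearest to the limit on the inner side were Eif3j2, with 1.71, 1.65 and 2.79 CPM in the saline IP libraries, and Eif2ak2, which passed through its level in the reference libraries. Gene levels in CPM, here and below, are also scaled by the trimmed mean of M values (TMM), unlike this limit. They are therefore not plain shares of a library.

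The libraries are RNA-seq of whole striatum from adult mice, all of the line Drd2-TRAP CP101. All groups, controls included, carry the Drd2-EGFP/Rpl10a transgene, which puts an EGFP-tagged ribosomal protein L10a into cells expressing the dopamine receptor gene Drd2. Mice took saline or cocaine by short-access intravenous self-administration, and tagged polysomes were pulled down with anti-EGFP antibodies (translating ribosome affinity purification, TRAP). There are 3 saline IP libraries, numbered 1, 2 and 4, and 5 cocaine IP libraries, numbered 1 to 5. A single library of saline total RNA (input) and a single library of cocaine unbound RNA, left after the pulldown, serve as references. The labels do not say whether the libraries of a group are separate mice or pools, so the errors below measure the spread between libraries, which may be technical. The labels give no age beyond adult, no sex and no time of dissection.

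Initiation loads the small ribosomal subunit onto an mRNA and finds the start codon. The factor eIF2 brings the initiator tRNA, eIF2B recharges eIF2 with GTP, eIF3 is the large scaffold on the small subunit, and the cap complex eIF4F recruits the mRNA. In the brain these steps are controlled mainly by eIF2 alpha kinases and by eIF4E-binding proteins downstream of mTOR, and both controls are known for their roles in synaptic plasticity and in responses to drugs of abuse.

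The sequence around the annotated start is shown for 7 genes. Eif1 had the highest ratio to total RNA, and Eif4a2 and Eif2d had the smallest p for cocaine. The other 4 are those of the 6 genes below total RNA in every saline IP library whose windows hold a motif described below. Eif2ak4 and Eif4g3, the rest of the 6, had neither motif and are not shown. Each line gives 30 bases before the RefSeq start in lower case and the first 30 transcribed bases in capitals, 5′ to 3′ on the gene's own strand, on GRCm38.p6.
Eif1, chr11:100319919-100319978, plus strand: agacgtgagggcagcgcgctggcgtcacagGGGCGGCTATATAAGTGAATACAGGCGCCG
Eif4a2, chr16:23107438-23107497, plus strand: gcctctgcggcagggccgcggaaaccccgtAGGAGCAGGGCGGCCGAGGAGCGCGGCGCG
Eif2d, chr1:131153177-131153236, plus strand: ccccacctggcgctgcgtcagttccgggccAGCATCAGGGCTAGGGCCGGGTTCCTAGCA
Eif3f, chr7:108934385-108934444, plus strand: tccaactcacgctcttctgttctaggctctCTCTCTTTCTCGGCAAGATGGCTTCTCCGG
Eif2s3x, chrX:94212622-94212681, minus strand: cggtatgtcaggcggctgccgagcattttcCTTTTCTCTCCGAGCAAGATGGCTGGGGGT
Eif2s3y, chrY:1010565-1010624, plus strand: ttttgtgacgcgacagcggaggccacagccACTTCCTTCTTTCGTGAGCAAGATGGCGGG
Eif2ak2, chr17:78882543-78882602, minus strand: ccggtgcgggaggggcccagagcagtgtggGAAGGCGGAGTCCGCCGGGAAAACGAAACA

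The transcripts of Eif3f, Eif2s3x and Eif2s3y open with a run of pyrimidines (C or T only). A run of at least 10 such bases that starts within the first 5 transcribed bases, on the gene's own strand, was found in 3 of the 56 RefSeq start windows of 43 initiation factor genes. These were the windows of Eif3f with 11 bases from base 1, Eif2s3x with 11 bases from base 1 and Eif2s3y with 12 bases from base 2. Over all 32851 RefSeq windows the share was 1.63%. Such runs are known from genes of the translation machinery as terminal oligopyrimidine tracts. Shorter runs, and runs that start later, were not counted, so the other genes may still have such a tract. The window of Eif2ak2 holds GAAA, any 2 bases and GAAA again, the core of the interferon-stimulated response element, from transcribed base 19. On either strand of the whole 300-base window this motif was also found for Eif2s1, Eif2s3x and Eif3a, and in 3.44% of all windows. These matches describe the letters and show no binding or control.

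Gene reads ranged from 22975667 to 31631137 per IP library, with 18408782 for the input and 20882691 for unbound RNA. Cocaine IP 5 stood apart, with the fewest gene reads, 1.5% of them in the ribosomal RNA gene Rn45s against 4.67% to 7.30% in the other IP libraries. All 5 markers of indirect-pathway medium spiny neurons (Drd2, Adora2a, Penk, Gpr6 and Ttc12) were at least 2-fold above the reference in every IP library. Their summed level was 7222 to 13203 CPM after pulldown, against 1552 in the input and 1181 in unbound RNA. Markers of direct-pathway neurons had summed levels of 74.7 to 141 CPM after pulldown, 706 in the input and 545 in unbound RNA. For oligodendrocyte markers these were 186 to 376, 4064 and 4391 CPM, for astrocyte markers 44.3 to 139, 1629.9 and 1573 CPM, and for microglia markers 2.11 to 6.43, 48.5 and 39.7 CPM. No marker of these lists was at 0 in all IP libraries. Reads outside annotated genes came to 12.9% to 14.4% in each IP library, against 25.5% in the input and 27.4% in the unbound RNA. These are shares of the reads counted in 1 gene, in several genes or in none, without reads placed at several sites. The reference libraries ran on another sequencing lane than the IP libraries, so lane and fraction cannot be told apart.

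Most initiation factor transcripts had a higher TMM-scaled level in the D2 ribosome RNA than in the reference RNA, by moderate amounts, and fewer did on library size alone. As plain shares of gene reads, the 55 genes made up 0.546% to 0.582% in saline IP against 0.505% in the input. In cocaine IP they made up 0.534% to 0.592%, against 0.507% in unbound RNA. With TMM scaling the 55 genes together had 5714 to 5784 CPM in the saline IP libraries against 4494 in the input. In the cocaine IP libraries they had 5574 to 5945 CPM, against 4572 in the unbound library. The start codon factor Eif1 and the eIF3 subunit Eif3i had the highest ratios, at about 2-fold or more, and the double-stranded RNA kinase Eif2ak2 the lowest. The 2 genes for the gamma subunit of eIF2 (Eif2s3x and Eif2s3y) and the scaffold gene Eif4g3 lay below the reference in every IP library of both treatments. In bulk RNA such as the references, fewer cells of a type and less RNA per cell cannot be told apart.

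In saline mice, 39 of the 52 genes (75%) lay above the input in every IP library, where 43.2% of the 12806 genes that reach the same mean of 1 CPM did. Another 6 (11.5%) lay below the input in every saline IP library, against 33.2% of all genes. At a limit of 2-fold in every saline IP library only Eif1 was higher (1.92%, with 1.44% of all genes), and 0 members were lower, with 11.3% of all genes. In cocaine mice, 34 of the 52 (65.4%) lay above the unbound RNA in every IP library, against 43.4% of all genes, and 5 (9.62%) lay below it, against 31%. The 2-fold limit was passed upward by Eif1 and Eif3i (3.85%, with 3.69% of all genes) and downward by Eif2ak2 (1.92%, with 10.5%). Both references lay below the IP libraries for 31 members (59.6%), against 34.9% of all genes, and above them for 4 (7.69%), against 25.5%. The median log2 ratio over the 52 genes was 0.35 for saline IP to input and 0.43 for cocaine IP to unbound, beside 0.11 and 0.15 over all genes. Ratios are log2 of (CPM + 1), with CPM scaled by the trimmed mean of M values (TMM), so those of genes near 1 CPM are understated. The references have 1 library each, so these counts have no test. Eif2ak2 reached the minimum of 1 CPM only through the references, so its place below them follows from that minimum.

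The scaling sets where 0 lies. With library size in place of TMM the median of all genes moved by 0.19 to -0.08 for saline and by 0.17 to -0.02 for cocaine. The members above the reference in every IP library then numbered 24 for saline and 28 for cocaine, where 31.4% and 34.1% of all genes were above, and the ratios of 10 and 3 members changed sign. For saline these were Eif3e, Eif3h, Eif3j1, Eif4b, Eif4e2, Eif4e3, Eif4g1, Eif4g2, Eif5 and Eif5a2, and for cocaine Eif2b5, Eif3f and Eif3j2. Relative to the median of all genes in each library, 30 members lay above the input and 6 below, where 37% of all genes were above and 37.8% below. Against unbound RNA, on the same centred scale, 29 were above and 12 below, where 35.5% were above and 36.8% below. The median of the members was then 0.25 for saline and 0.28 for cocaine.

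**Figure D1:**
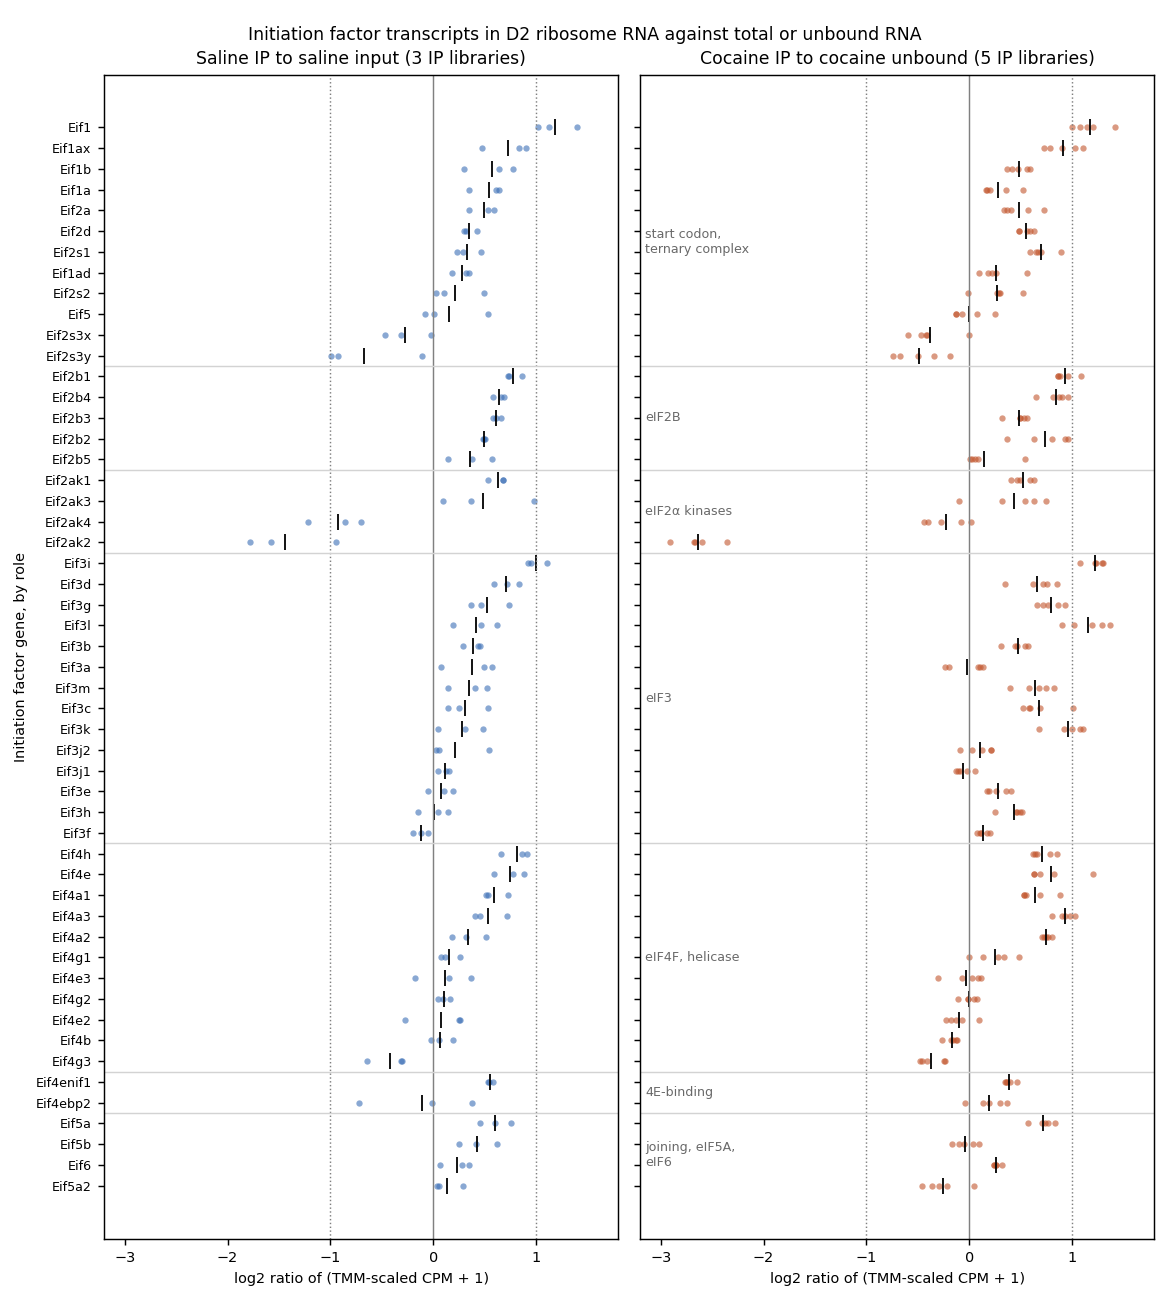
Log2 ratio of (TMM-scaled CPM + 1) of each IP library to its single reference library for 52 initiation factor genes grouped by role, saline at left and cocaine at right. Points are IP libraries, black ticks are means, the solid line marks equal levels and dotted lines mark 2-fold. Eif1 and Eif3i lie near or above the upper 2-fold line in both panels, and Eif2ak2 lies farthest to the left.

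Start codon factors and the ternary complex of eIF2, GTP and initiator tRNA gave 12 genes. Of these, 9 lay above the input in every saline IP library and 8 above the unbound RNA in every cocaine IP library, with medians of 0.34 and 0.38. The background for this and the later groups is 43.2% and 43.4% of all genes, with medians of 0.11 and 0.15. Eif1 encodes the factor that guards start codon choice during scanning, and it had 280.4, 365 and 304 CPM in saline IP 1, 2 and 4 against 138 in the input (95% Poisson interval 133 to 143, counting error only). In the cocaine IP libraries 1 to 5 it had 285, 332, 273, 261 and 248 CPM against 123 in the unbound library. Every IP library was at least 2-fold above its reference, and the mean log2 ratios were 1.18 ± 0.19 (SD) for 3 saline and 1.17 ± 0.16 for 5 cocaine libraries. Its close paralog Eif1b had 144, 200.5 and 182 CPM in saline IP and 117 in the input, and 158, 185, 170.4, 165 and 181 CPM in cocaine IP against 122, with ratios of 0.57 ± 0.25 for saline and 0.48 ± 0.09 for cocaine.

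Eif1ax, the X-linked gene of the scanning factor eIF1A, had 71.4, 96.4 and 92.1 CPM in saline IP and 51.3 in the input. Its cocaine IP levels were 88.6, 96.97, 81.1, 78.5 and 103 CPM against 46.95 in unbound RNA, and its ratios were 0.73 ± 0.23 and 0.91 ± 0.16. The autosomal gene for eIF1A, Eif1a, had lower ratios of 0.54 ± 0.16 and 0.28 ± 0.16. Eif2a, which encodes a tRNA-binding factor separate from the eIF2 complex, had 80.7, 95.6 and 91.6 CPM against 63.03 in the input and 70.7 in unbound RNA, and ratios of 0.49 ± 0.13 and 0.48 ± 0.16. Eif2d encodes another tRNA delivery and recycling factor and had ratios of 0.35 ± 0.07 and 0.55 ± 0.07.

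The genes of the eIF2 complex itself did not share a direction. Eif2s1 encodes the alpha subunit, the target of the stress kinases, and had 55.5, 49.4 and 47.1 CPM in saline IP against 40.1 in the input. Its cocaine IP levels were 50.3, 52.5, 54.4, 53.4 and 62.1 CPM against 33.1, so that all 8 IP libraries were above their reference, with ratios of 0.33 ± 0.12 and 0.70 ± 0.11. Eif2s2, the beta subunit gene, had ratios of 0.21 ± 0.25 and 0.27 ± 0.19, with 1 cocaine library at the level of the unbound RNA. The GTP-binding gamma subunit comes from Eif2s3x on the X chromosome and Eif2s3y on the Y chromosome. Eif2s3x had 20.1, 18 and 24.8 CPM in saline IP against 25.2 in the input, and 21.4, 21.3, 18.6, 20.5 and 28.8 CPM in cocaine IP against 28.8. All 8 values were below the reference, saline IP 4 and cocaine IP 5 by very little, with ratios of -0.27 ± 0.22 and -0.38 ± 0.23.

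Eif2s3y had 36.95, 20.5 and 19.6 CPM in saline IP against 39.9 in the input (interval 37.2 to 42.7). Its cocaine IP libraries had 34.5, 23.3, 24.5, 27.6 and 31.1 CPM against 39.6 in unbound RNA (interval 37.1 to 42.3). All 8 IP values were below the interval of their reference, those numbered 1 coming closest, and the ratios were -0.67 ± 0.49 and -0.49 ± 0.23. The other Y-linked genes measured, Ddx3y, Uty and Kdm5d, also lay below the input in every saline IP library. Their saline ratios were -0.27 ± 0.14, -0.73 ± 0.12 and -1.27 ± 0.23, and in cocaine they were -0.22 ± 0.18, -1.07 ± 0.19 and -0.78 ± 0.16, with Ddx3y above unbound RNA in cocaine IP 1, at 51.3 against 49.7 CPM.

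All 5 subunit genes of eIF2B, the exchange factor that returns eIF2 to its GTP form, lay above the reference in each of the 8 IP libraries, with medians of 0.61 and 0.74, except that the cocaine mean of Eif2b5 changed sign on library size. Eif2b1, the alpha subunit gene, had the highest saline ratio of the complex, from 33.7, 30.9 and 30.8 CPM in saline IP against 18.1 in the input. Its cocaine IP levels were 31.5, 34.6, 29.8, 29.4 and 29.3 CPM against 15.7, and the ratios were 0.78 ± 0.07 and 0.93 ± 0.10. The ratios of Eif2b4 (delta) were 0.64 ± 0.06 and 0.84 ± 0.12, those of Eif2b2 (beta) 0.49 ± 0.01 and 0.74 ± 0.24, and those of Eif2b3 (gamma) 0.61 ± 0.04 and 0.48 ± 0.09. Eif2b5, the catalytic epsilon subunit gene, had the lowest ratios of the complex, with 40.2, 35.2 and 29.6 CPM in saline IP against 26.8 in the input. In cocaine IP it had 32.1, 31.1, 31.8, 30.6 and 44.6 CPM against 30.4, with ratios of 0.36 ± 0.22 and 0.14 ± 0.22, and without cocaine IP 5 the 4 remaining libraries were close to the unbound level.

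The 4 eIF2 alpha kinases, each tuned to another stress, lay on opposite sides. Eif2ak1, the heme-regulated kinase, had 81.8, 81.6 and 73.6 CPM in saline IP against 50.5 in the input. Its cocaine IP libraries had 74.5, 76.9, 68.4, 69.7 and 65.9 CPM against 49.3, so that every IP library was above its reference, with ratios of 0.63 ± 0.09 and 0.52 ± 0.09. Eif2ak3 (PERK), the kinase of endoplasmic reticulum stress, had 8.02, 12.8 and 6.45 CPM in saline IP against 5.998, and 6.08, 10.03, 11.8, 8.52 and 10.7 CPM in cocaine IP against 6.60. Its saline libraries were all above the input and cocaine IP 1 was below the unbound level, with ratios of 0.48 ± 0.46 and 0.43 ± 0.33.

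Eif2ak4 (GCN2), the kinase of amino acid shortage, had 5.13, 3.29 and 4.51 CPM in saline IP against 8.997 in the input (interval 7.75 to 10.4). In cocaine IP it had 5.83, 4.56, 5.38, 4.12 and 3.97 CPM against 5.74 (interval 4.81 to 6.80), and cocaine IP 1 lay just above that value. The ratios were -0.93 ± 0.26 for saline, with all libraries below the input, and -0.23 ± 0.20 for cocaine. Eif2ak2 (PKR), the interferon-inducible kinase of double-stranded RNA, was the farthest below. It had 1.68, 0.501 and 0.726 CPM in saline IP against 4.16 in the input, a value from 86 reads with an interval of 3.33 to 5.14. Its cocaine IP libraries had 1.09, 0.679, 0.429, 0.767 and 0.669 CPM against 9.71 in unbound RNA, from 225 reads with an interval of 8.48 to 11.1. No IP library reached the lower bound of its reference, and the ratios were -1.44 ± 0.44 and -2.64 ± 0.20. Since Eif2ak2 passed the minimum of 1 CPM only through the references, its place below them follows from that minimum. The marker lists of glia and of direct-pathway neurons given above were also far lower in the IP libraries than in the references. Between the references, Eif2ak2 and the oligodendrocyte markers were higher in unbound RNA, while the astrocyte, microglia and direct-pathway markers were higher in the input. The part of these cells in the ratio of Eif2ak2 was not tested.

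Of the 14 eIF3 subunit genes, 11 lay above the input in every saline IP library and 11 above unbound RNA in every cocaine IP library, with medians of 0.33 and 0.55. Eif3i encodes a propeller-shaped subunit at the mRNA entry side and had 142, 159 and 139 CPM in saline IP against 72.9 in the input. In cocaine IP it had 142, 136, 123, 142 and 135 CPM against 57.3 in unbound RNA. Every library of both treatments was close to or above 2-fold, with ratios of 1.0 ± 0.10 and 1.22 ± 0.09.

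Eif3l and Eif3k encode a pair of neighbouring subunits. Eif3l had 47.3, 57.2 and 63.7 CPM in saline IP against 41.3 in the input, and 48.4, 54.7, 58.5, 61.7 and 44.6 CPM in cocaine IP against 23.3 in unbound RNA. The IP levels of both treatments overlapped, while the unbound reference was lower than the input, and the ratios were 0.42 ± 0.21 for saline and 1.15 ± 0.19 for cocaine. Eif3k showed the same order, with 85.7, 116 and 103 CPM in saline IP, 90.8, 96.1, 102, 103 and 76.5 CPM in cocaine IP, 82.8 in the input and 47.5 in unbound RNA. Its ratios were 0.28 ± 0.22 and 0.96 ± 0.17. Since the references are different fractions with 1 library each, a difference between the saline and the cocaine ratio is no measure of treatment.

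Eif3f was the exception among all 52 genes, below its reference in every saline IP library and above it in every cocaine IP library. It had 75.3, 79.1 and 71.1 CPM in saline IP against 81.7 in the input (interval 77.8 to 85.7). Its cocaine IP libraries had 71.1, 72.7, 67.9, 68.05 and 66.4 CPM against 63.1 in unbound RNA (interval 59.9 to 66.5). The IP ranges of both treatments overlapped while the input was higher than the unbound RNA, and the ratios were small at -0.12 ± 0.08 and 0.13 ± 0.05. On library size the cocaine mean of Eif3f was also below 0. The remaining subunits ranged in saline from 0.01 for Eif3h to 0.71 for Eif3d, and in cocaine from -0.06 for Eif3j1, the loosely bound subunit, to 0.79 for Eif3g. The exons of Eif3d overlap Gm17638 on the other strand over 32.9% of their length.

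The cap complex eIF4F and the helicase factors gave 11 measured genes. Of these, 7 lay above the input in every saline IP library and 6 above unbound RNA in every cocaine IP library. Their medians were 0.15 and 0.25, beside 0.11 and 0.15 over all genes. Eif4e, the gene of the cap-binding protein, had 200, 246 and 229 CPM in saline IP against 133 in the input. Its cocaine IP levels were 236, 259, 227, 226 and 338 CPM against 146, with cocaine IP 5 the highest, and the ratios were 0.75 ± 0.15 and 0.79 ± 0.24. Its relatives Eif4e2, which encodes a cap-binding repressor, and Eif4e3 had ratios near 0, at 0.08 ± 0.30 and 0.11 ± 0.28 for saline and -0.10 ± 0.13 and -0.03 ± 0.17 for cocaine.

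The scaffold genes of the complex differed from each other. Eif4g1 had 62.7, 55.6 and 56.7 CPM in saline IP against 52.3, and 53.6, 48.3, 56.1, 61.7 and 44.1 CPM in cocaine IP against 43.98. It lay slightly above its reference in every library, although its saline mean changed sign on library size, with ratios of 0.15 ± 0.09 and 0.25 ± 0.19. Eif4g3 had 137, 108 and 136 CPM in saline IP against 169 in the input (interval 163 to 174), and 110, 108, 113, 128 and 127 CPM in cocaine IP against 151 (interval 146 to 156). All 8 IP values were below the reference, with ratios of -0.42 ± 0.20 and -0.37 ± 0.11. Eif4g2, whose protein lacks the eIF4E-binding region, had 820.1, 784 and 764 CPM in saline IP against 736 in the input, and 819.6, 809, 773, 773 and 725 CPM in cocaine IP against 780.4. Its ratios of 0.10 ± 0.05 and 0.00 ± 0.07 were near 0, and it varied least among the IP libraries, with a coefficient of variation of 4.14%.

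The helicase genes Eif4a1 and Eif4a2 and the helicase cofactor gene Eif4h all lay above the reference in every IP library. Eif4a1 had 159, 138 and 137 CPM in saline IP against 95.4, and 139, 153, 137, 137 and 175 CPM in cocaine IP against 94.7, with ratios of 0.59 ± 0.12 and 0.64 ± 0.15. Eif4a2 had 379 CPM in the input and 343 in unbound RNA and ratios of 0.34 ± 0.16 and 0.75 ± 0.03, and its IP levels are given with the treatment below. Eif4h had 215, 209 and 181 CPM in saline IP against 114, and 200.2, 192, 174, 175 and 171 CPM in cocaine IP against 111, with ratios of 0.81 ± 0.13 and 0.71 ± 0.10. The other cofactor gene, Eif4b, had ratios near 0 of 0.07 ± 0.11 and -0.17 ± 0.06, and lay below unbound RNA in every cocaine IP library. Eif4a3, whose helicase belongs to the exon junction complex, had 31.9, 32.8 and 39.8 CPM in saline IP against 23.7, and 33.3, 35.8, 36.7, 39.4 and 37.8 CPM in cocaine IP against 18.7. All its libraries were above the reference, with ratios of 0.53 ± 0.17 and 0.93 ± 0.09.

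Among repressors that bind eIF4E, Eif4ebp2 was the member of the 4E-BP family that reached the 1 CPM minimum. It had 11.1, 24.9 and 18.8 CPM in saline IP against 18.9, and 15.6, 17.7, 20.98, 19.98 and 18.4 CPM in cocaine IP against 16.1. Both groups lay on both sides of the reference, and the ratios were -0.11 ± 0.56 and 0.19 ± 0.16. Eif4enif1, which encodes the carrier of eIF4E to the nucleus and to RNA granules, lay above the reference in every IP library, with tight ratios of 0.55 ± 0.03 and 0.39 ± 0.04.

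Among the late factors, Eif5a, which encodes the hypusine-bearing factor that eases peptide bond formation, had 164, 185 and 148 CPM in saline IP against 108, and 165, 173, 162, 159 and 145 CPM in cocaine IP against 96.9. All its libraries were above the reference, with ratios of 0.60 ± 0.16 and 0.72 ± 0.10. Its paralog Eif5a2 had 91.1, 77.7 and 76.3 CPM in saline IP against 74.3, and 111, 92.3, 87.8, 83.2 and 77.6 CPM in cocaine IP against 107. It lay slightly above the input, though not on library size, and mostly below unbound RNA, with ratios of 0.13 ± 0.14 and -0.26 ± 0.19. Eif5b, the gene of the subunit-joining GTPase, had ratios of 0.43 ± 0.19 and -0.04 ± 0.10. Eif6, whose protein keeps the large subunit from joining, had 30.3, 31.9 and 25.97 CPM in saline IP against 24.8, and 26.9, 28.5, 26.95, 27.3 and 27.4 CPM in cocaine IP against 22.7. It lay above the reference in every IP library, with ratios of 0.23 ± 0.15 and 0.26 ± 0.03.

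Over the 52 genes the saline and cocaine mean ratios correlated at Pearson r = 0.85 and Spearman rho = 0.78. This is a description across genes, which are not independent replicates, and the 10 libraries share 1 TMM scaling. Both values include Eif2ak2, the lowest gene on both axes at -1.44 and -2.64, which passed the minimum of 1 CPM only through the references. The correlation without Eif2ak2 was not computed.

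**Figure D2:**
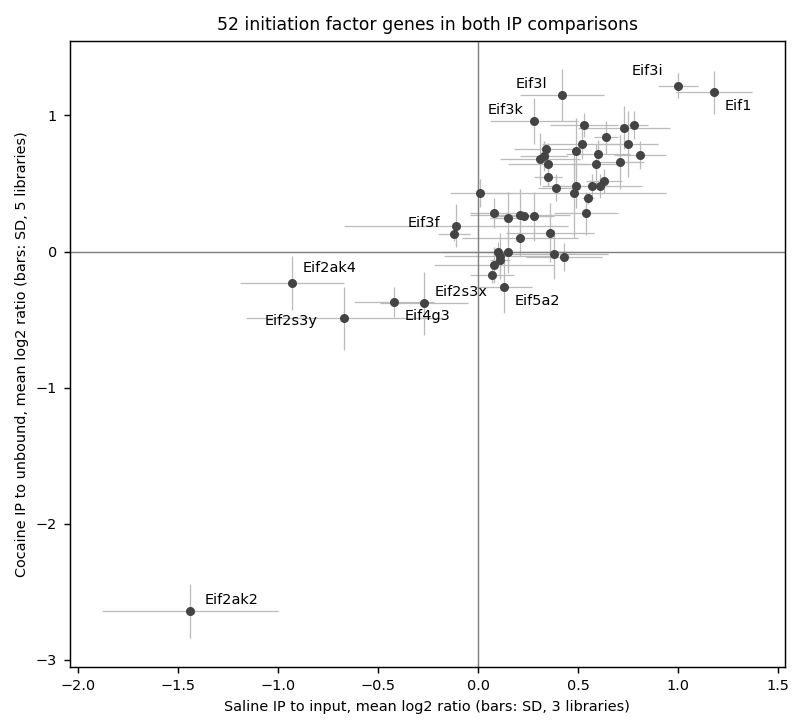
Mean log2 ratio of saline IP to input (x axis) and of cocaine IP to unbound RNA (y axis) for 52 initiation factor genes, with SD over 3 and 5 IP libraries as bars. Most points lie at the upper right, Eif2ak2 lies alone at the lower left, and Eif3l and Eif3k have higher cocaine than saline ratios.

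Paralog pairs were compared as log2 ratios of CPM per kilobase of exon within each library, for 9 pairs. For 5 pairs, the ratio of the member named first was higher in every IP library than in its reference. The ratio of Eif4e to Eif4e2 was 2.15 ± 0.17 in saline IP against 1.48 in the input, and 2.18 ± 0.15 in cocaine IP against 1.27 in unbound RNA. For Eif4g1 to Eif4g3 it was -0.37 ± 0.15 against -0.94, and -0.41 ± 0.21 against -1.04, so Eif4g3 was the more abundant in every fraction. Eif1 exceeded Eif1b in all 8 IP libraries, at 0.50 ± 0.11 for saline and 0.35 ± 0.16 for cocaine, and was below it in the references, at -0.11 and -0.34. For Eif4e to Eif4e3 it was 2.14 ± 0.30 against 1.51, and 2.28 ± 0.39 against 1.45. The ratio of Eif5a to Eif5a2 was 2.10 ± 0.21 against 1.63, and 1.92 ± 0.15 against 0.93. The pair Eif4a1 to Eif4a2 moved in neither direction as a rule, at -0.88 ± 0.27 against -1.14 for saline and -1.12 ± 0.16 against -1.01 for cocaine. Eif2s3x to Eif2s3y was -1.26 ± 0.61 against -1.68, and -1.37 ± 0.24 against -1.48. Means for the remaining 2 pairs lay below the reference: Eif1a to Eif1ax at 0.29 ± 0.34 against 0.49 and 0.43 ± 0.14 against 1.07, and Eif3j1 to Eif3j2 at 0.98 ± 0.48 against 1.18 and 0.74 ± 0.26 against 0.95. For Eif1a to Eif1ax all 5 cocaine IP libraries were below unbound RNA.

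Per kilobase of exon, Eif1 was the most abundant of the 52 genes in saline IP at 239 ± 33.1 CPM per kilobase, followed by Eif1b at 169.7 ± 27.9, Eif4a2 at 150.3 ± 17 and Eif3i at 131 ± 9.59. Eif1 stands apart from Eif1b by more than their SDs, the neighbours after it overlap, and in cocaine IP Eif4a2 was at 181, above Eif1b at 166. Subunit genes of 1 complex spanned wide ranges. In saline IP the eIF3 genes ran from 0.861 for Eif3j2 and 1.65 for Eif3j1 through 12.9 for Eif3b to 131 for Eif3i. The eIF2 genes were at 14.9 for alpha, 44.9 for beta, 5.64 for Eif2s3x and 13.99 for Eif2s3y. The eIF2B genes ran from 2.30 for Eif2b3 to 16.5 for Eif2b2. Among the kinases, Eif2ak1 was at 18.3 ± 1.09, Eif2ak3 at 1.88 ± 0.688, Eif2ak4 at 0.594 ± 0.129 and Eif2ak2 at 0.225 ± 0.145, an order in which no neighbours overlap within their SDs. In the input, Eif2ak2 was at 0.965, below Eif2ak3 and Eif2ak4, both at 1.24. In unbound RNA, Eif2ak2 was at 2.25, above Eif2ak3 at 1.36 and Eif2ak4 at 0.791. These levels use exon lengths of all basic transcripts merged, which overstate the length of genes with rarely used exons.

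**Figure D3:**
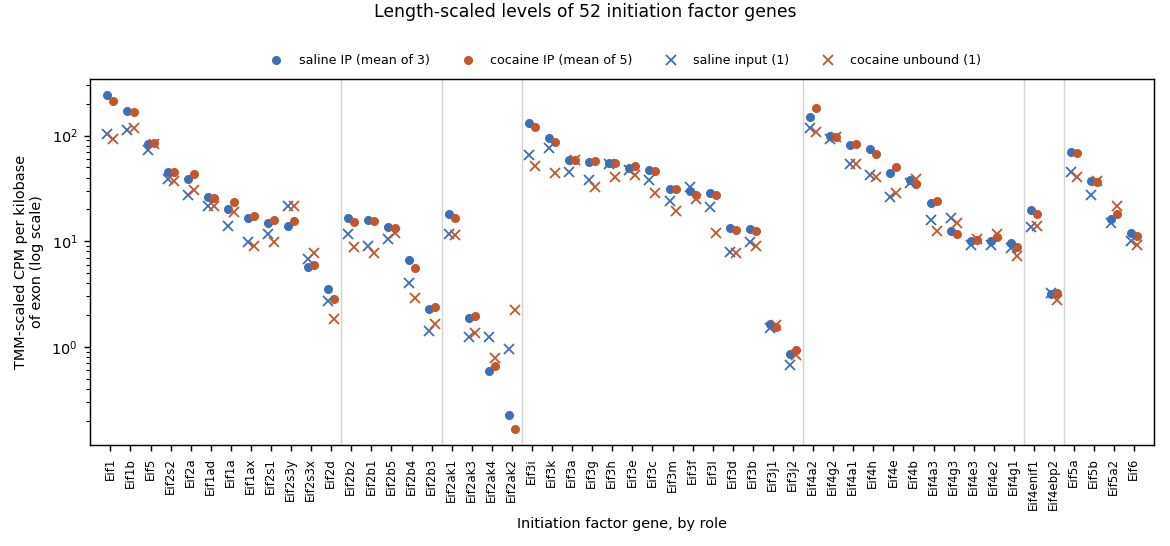
TMM-scaled CPM per kilobase of merged exon (log scale) for 52 initiation factor genes, grouped by role and ordered by level in saline IP. Circles are means of 3 saline and 5 cocaine IP libraries and crosses are the single reference libraries. Eif1 is highest, the eIF3 genes fall from Eif3i to Eif3j2, and Eif2ak2 is the gene whose crosses lie farthest above its circles.

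Some levels are uncertain because parts of the transcript recur elsewhere in the genome at 98% identity or more over at least 100 bases. The share of the transcript in such copies was 100% for Eif3j2, 87.7% for Eif3m, 68.7% for Eif4a1, 56% for Eif3j1, 39% for Eif2s2, 37% for Eif2s3x, 25.9% for Eif1, 15.5% for Eif4a2, 13.1% for Eif4e and 8.7% for Eif5a. Exons of Eif2ak1 overlap Ankrd61 and Aimp2 on the other strand over 15.2% of their length, those of Eif2b4 overlap Snx17 over 8.53%, and those of Eif4a2 overlap Rfc4 over 5.47%. Exons of Eif3j1 overlap Gm47314 on the same strand and Spg11 on the other over 21.7%, and those of Eif4e3 overlap Gm20696 on the same strand over 14.8%. Other-strand overlaps were 16.7% for Eif1ad (Banf1), 15.9% for Eif5b (Rev1) and 10% for Eif2ak3 (Gm43292). Some other members have smaller overlaps that are not listed. Exons of Eif4ebp3 overlap AC115631.1 on the same strand over 67.3% of their length, so its 0 reads may not show that it was not transcribed. Reads placed at several sites made up 33.3% to 47.1% of all reads per IP library, 31.1% for the input and 25.9% for unbound RNA. Without a stated strand setting, reads of such partners cannot be told apart.

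Cocaine self-administration left no initiation factor transcript past the test threshold in D2 ribosome RNA. Of 13800 genes tested with edgeR's quasi-likelihood test, 0 (0%) had an adjusted p under 0.05, members included, and the smallest adjusted p was 0.9998 (Benjamini-Hochberg over all genes). At an unadjusted p under 0.05 there were 2 of the 52 members (3.85%), Eif4a2 and Eif2d, beside 2.14% of all genes. DESeq2 also called 0 genes and placed 363 of 13798 genes under an unadjusted p of 0.05, the same 2 members among them. A quasi-likelihood fit that paired the libraries by number, on numbers 1, 2 and 4 alone, called 0 genes as well. Its smallest adjusted p was lower, at 0.0599, and 903 of 13580 genes and 3 of the 52 members had an unadjusted p under 0.05. In the unpaired edgeR fit the estimates were small in both directions, 24 above 0 and 28 below, with a median of -0.01. Only Eif2ak2 was estimated beyond 0.32 on the log2 scale, at -0.41 with a standard error (SE) of 0.45. The SEs ranged from 0.09 to 0.45 with a median of 0.13, and for 51 of the 52 genes the 95% normal interval lay within 1 log2 unit of 0. A 2-fold change was thus outside the interval of every member but Eif2ak2. Lane 7 held saline libraries alone and lane 4 cocaine libraries alone, so lane and treatment can be told apart only through the 3 libraries of lane 6.

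**Figure D4:**
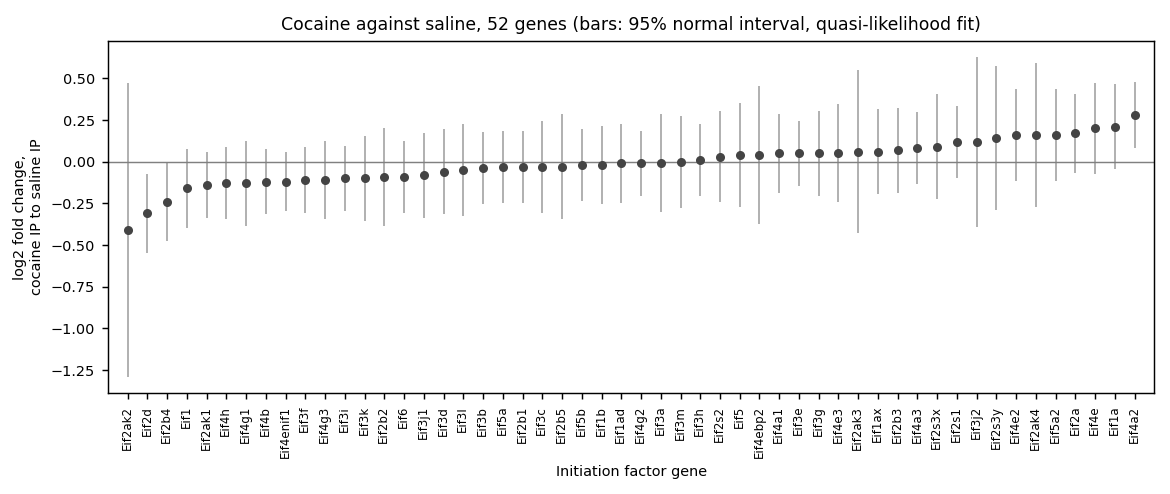
Log2 fold change of cocaine IP to saline IP from the quasi-likelihood fit for 52 initiation factor genes, ordered by size, with bars for the 95% normal interval. All but Eif2ak2 lie within 0.32 of 0, and its bar is the longest.

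Eif4a2 (chr16:23107444-23114136, plus strand, GRCm38) encodes the helicase form that is prominent in neurons. It had 430.1, 538 and 473 CPM in saline IP 1, 2 and 4 and 578, 564, 599.8, 569.8 and 586 CPM in cocaine IP 1 to 5. Every cocaine library was above every saline library, with means of 480.5 ± 54.3 and 579.6 ± 14.1 CPM (SD). The log2 fold change was 0.28 (SE 0.10), with an unadjusted p of 0.0172 and an adjusted p of 0.9998. Within sequencing lane 6, which holds saline IP 4 and cocaine IP 1 and 2, the log2 difference was 0.27, and between libraries of the same number it was 0.43, 0.07 and 0.27. Over 16 alternative fits the fold change ranged from 0.20 to 0.36 and the unadjusted p from 0.00537 to 0.146, while the adjusted p was never under 0.657. The unadjusted p was under 0.05 in 11 of these fits. It was not in the other 5, which were those without saline IP 1, without saline IP 4, with lane as a covariate, without the lane 4 libraries, and on the 6 libraries numbered 1, 2 and 4 with no block.

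Eif2d (chr1:131153181-131187658, plus strand) had 14.3, 15.5 and 14.1 CPM in saline IP and 12.04, 11.7, 11.03, 12.4 and 11.1 CPM in cocaine IP. Every cocaine library was below every saline library, with means of 14.6 ± 0.757 and 11.6 ± 0.599 CPM. The log2 fold change was -0.31 (SE 0.12), with an unadjusted p of 0.0238 and an adjusted p of 0.9998. It was -0.24 within lane 6 and -0.24, -0.40 and -0.18 between libraries of the same number. The alternative fits ranged from -0.35 to -0.22, with unadjusted p-values from 0.0106 to 0.341, and that p was under 0.05 in 11 of 16. The other 5 were those without saline IP 2, without cocaine IP 3, with lane as a covariate, without the lane 4 libraries, and on the same 6 libraries with no block.

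The groups also did not overlap for Eif2b4 and Eif4enif1, which makes 4 of the 52 members (1 higher and 3 lower in cocaine) beside 2.31% of all genes tested. Eif2b4 had 14.99, 15.99 and 16.3 CPM in saline IP and 12.97, 13.8, 11.4, 14.4 and 13.5 CPM in cocaine IP, with a fold change of -0.24 (SE 0.12). Eif4enif1 had 80.5, 81.5 and 83.9 CPM in saline IP and 74.1, 75.5, 73.9, 78.7 and 73.3 CPM in cocaine IP, with a fold change of -0.12 (SE 0.09). Both differences were lower in cocaine by small amounts, and the unadjusted p was 0.0735 for Eif2b4 and 0.235 for Eif4enif1 in the quasi-likelihood fit.

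Next by p came Eif1a, Eif2a and Eif4e, whose groups overlapped. Eif1a had 91.3, 88.98 and 74.4 CPM in saline IP and 102, 88.9, 89.5, 91.5 and 114 CPM in cocaine IP, with a fold change of 0.21 (SE 0.13). In cocaine IP, Eif2a had 89.8, 94.3, 91.4, 105 and 118 CPM and a fold change of 0.17 (SE 0.12). Eif4e had a fold change of 0.20 (SE 0.14), with the highest value in cocaine IP 5, the library that stood apart.

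**Figure D5:**
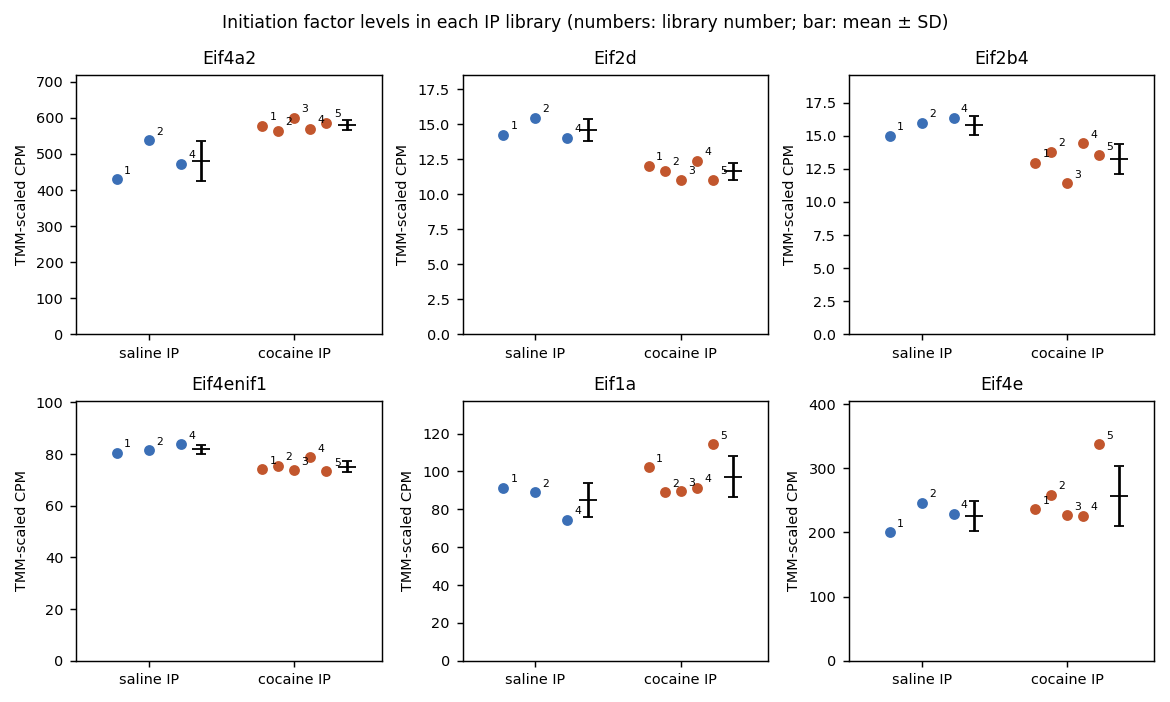
TMM-scaled CPM of 6 initiation factor genes in each saline IP (blue) and cocaine IP (orange) library, with library numbers beside the points and mean ± SD bars, on axes that start at 0. Groups do not overlap for Eif4a2, Eif2d, Eif2b4 and Eif4enif1, and cocaine IP 5 is the highest value for Eif1a and Eif4e.

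By role, the median fold change of cocaine to saline lay between -0.04 and 0.05 for every group. It was 0.05 for the 12 start codon and ternary complex genes and for the 11 cap complex and helicase genes, and -0.03 for the eIF2B genes, the eIF3 genes and the late factors. The kinases were at -0.04, with -0.14 (SE 0.10) for Eif2ak1, 0.06 (SE 0.25) for Eif2ak3 and 0.16 (SE 0.22) for Eif2ak4. Eif2s1, which encodes their substrate, was at 0.12 (SE 0.11). The scaffold genes Eif4g1, Eif4g2 and Eif4g3 were at -0.13, -0.01 and -0.11, and the repressor gene Eif4ebp2 was at 0.04 (SE 0.21). The transcript level says nothing of eIF2 alpha phosphorylation or of the binding of repressors, which were not measured.

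Neighbouring parts of the pathway also held 0 genes past the test for cocaine against saline. Of the 12 integrated stress response genes, which act upstream or downstream of eIF2 alpha phosphorylation, 7 estimates were above 0 and 5 below, with a median of 0.02. The smallest p-values were those of Gcn1l1, the partner of GCN2, at -0.40 (SE 0.20), Dnajc3, an inhibitor of the eIF2 alpha kinases, at 0.47 (SE 0.23), and Ddit3, a stress transcription factor, at -0.23 (SE 0.14). The 16 genes of mTOR, MNK and S6K control had 7 above and 9 below 0, led by the mTOR activator Rheb at 0.27 (SE 0.12). Among 5 poly(A)-binding genes 4 were above 0 with a median of 0.18, among 12 elongation genes 6 were above 0, and among 6 termination and recycling genes 5 were.

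Against the references, the termination and recycling genes had the medians closest to those of the initiation factors, with 5 of 6 above the input in every saline IP library, 4 of 6 above unbound RNA in every cocaine IP library, and medians of 0.45 and 0.47. Denr and Mcts1, whose proteins form a recycling pair related to eIF2D, had saline ratios of 0.79 ± 0.12 and 0.70 ± 0.16. Elongation genes had medians of 0.08 and 0.23, with 5 and 7 of 12 above, where 43.2% and 43.4% of all genes were. Poly(A)-binding genes had 0.10 and 0.17, and Pabpc1, the main cytoplasmic poly(A)-binding protein gene, lay below both references at -0.91 ± 0.29 and -1.28 ± 0.23. The stress response list was at -0.02 and 0.12 and the mTOR list at 0.13 and 0.14, close to the medians of all genes.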

How the data were processed

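The authors deposited 1 file per library with raw counts of reads per gene, in whole numbers and with no normalization. Per the submitters' processing notes, STAR 2.0.0e and HTSeq were used on build mm10. The sources used here do not give the annotation or the strand setting. HTSeq's special counters name no gene and were left out of library sizes and tests, and the report gives the shares of reads outside annotated genes and at several sites.

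Groups and numbers came from the sample titles. Cocaine IP was tested against saline IP with edgeR 4.0.16 in R 4.3.3: TMM scaling, genes kept by filterByExpr, a two-sided quasi-likelihood test on treatment alone, and Benjamini-Hochberg adjusted p-values over all 13800 genes. A DESeq2 1.42.0 Wald test was an alternative. IP libraries were set against their single reference as log2 ratios with a pseudocount of 1 CPM. Intervals of reference levels are exact Poisson intervals at 95%, which cover counting error only. At these depths 3 reads equal 0.0948 to 0.131 CPM in the IP libraries. The steps were tested on simulated counts.

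The members, lists and motifs were chosen with earlier results of these data known. Genes with values in every library are the 6 highest and 6 lowest by each ratio, the 6 smallest p, and a fixed set of 21. Eif4enif1 was added after its values were seen. Of 55 members, 55 have a GENCODE vM21 position on GRCm38, the assembly of mm10, and 43 have a RefSeq start window. Lanes were read from the sample descriptions.

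The labels do not say what a library number marks. Saline and cocaine libraries numbered 1, 2 and 4 deviated from their group means together, with correlations of 0.71, 0.618 and 0.311 over 9992 genes that reach a mean of 5 CPM. Each correlated best with its own number. The numbers were therefore taken to pair the libraries, and the fit with this block is among the alternatives. No 2 libraries of a group agreed within counting noise.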

Additional observations from a re-analysis of the deposited data

Results flagged for a closer look

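Among the 5 cocaine IP libraries, 4 of the 52 genes had 1 library far from the other 4, by the gap to its nearest neighbour as a share of the range. Chance gives such a gap in about 1 in 20 groups. The share of all genes with such a gap was not counted, so the 4 genes are no result about initiation factors. Eif2b5, the catalytic subunit gene of eIF2B, was at 44.6 CPM in cocaine IP 5 and at 30.6 to 32.1 in the others. Eif2s3x, the X-linked gamma subunit gene of eIF2, was at 28.8 CPM in cocaine IP 5 and at 18.6 to 21.4 in the others. Eif3h, an eIF3 subunit gene, was lower in cocaine IP 5, at 62.4 CPM against 71.8 to 74.9. Eif6, the large-subunit anti-association factor gene, was at 28.5 CPM in cocaine IP 2 and at 26.9 to 27.4 in the others. Cocaine IP 5 also had the fewest gene reads and the lowest share of Rn45s among the IP libraries, and the part of these in the 3 values was not tested.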

How the results depend on the processing

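For cocaine against saline, 0 members and 0 genes had an adjusted p under 0.05 in all 16 alternative fits. With the replicate block on numbers 1, 2 and 4 the smallest adjusted p was 0.0599 and the block changed no call. It put 903 of 13580 genes and 3 of the 52 members (Eif2d, Eif4a2 and Eif5a2) under an unadjusted p of 0.05. The share of members was thus no larger than that of all genes. Without the block, the same 6 libraries put 141 of 13580 genes and 0 members there. With library size alone, 0 of the 52 members were 2-fold higher and 1 was 2-fold lower than the input, beside 0.531% and 13% of all genes. In that setting 24 were above it, beside 31.4%, and the median ratio was 0.16. Against unbound RNA 0 were then 2-fold higher and 13 of 52 below, beside 1.93% and 38.1% of all genes, and the median was 0.25. A pseudocount of 0.1 CPM left 1 of 52 members 2-fold lower than the input, beside 12.7% of all genes. With 5 CPM, 0 were 2-fold higher (median 0.32), and 1 was against unbound RNA (median 0.35), beside 0.836% and 2.29% of all genes. A minimum mean of 5 CPM removed Eif2ak2 and Eif3j2, which left 0 members 2-fold lower than unbound RNA. It raised the share of all genes above the reference in every IP library to 50.9% for the input and 50.3% for unbound RNA. At 1.5-fold, 6 of the 52 members were higher and 2 of 52 lower than the input, beside 10.6% and 16.7% of all genes. Against unbound RNA 13 of the 52 were higher, a larger share than the 13.4% of all genes. Centring on the median of all genes, chosen after seeing the data, gave 12 of 52 below unbound RNA, beside 36.8% of all genes. Leaving out 1 library in turn can only keep or raise a count that asks for every library. It gave 40 to 42 members above and 6 to 7 below the input, where 45.4% to 51% and 35.8% to 37.2% of all genes were. Of the members 0 to 1 were 2-fold lower, beside 11.8% to 12.5% of all genes, and the medians were 0.33 to 0.37. Against unbound RNA it gave 34 to 36 above and 5 to 7 below, where 44.1% to 48.4% and 31.6% to 33% of all genes were. There, 2 to 3 members were 2-fold higher, beside 3.72% to 5.51% of all genes, and the medians were 0.41 to 0.44. The median fold change of the members, -0.01, lay on the other side of 0 at 0.04 with lane as a covariate, and at 0.01 with the replicate block and without cocaine IP 2. The ratios near 0 that changed sign on library size are named in the report. Depth limits Eif2ak2 most, at 0.429 to 1.68 CPM in the IP libraries.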

Other observations

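The runs of pyrimidines at the start of Eif3f, Eif2s3x and Eif2s3y were set beside those of all genes, a comparison chosen after their values were seen. Of the genes with a RefSeq start window and a mean of at least 1 CPM, 182 had such a run and 9179 had none. The median log2 ratio of saline IP to input was 0.00 for genes with a run and 0.14 for the others, and for cocaine IP to unbound RNA it was 0.00 and 0.18. Genes below the input in every saline IP library made up 38.5% and 31.4%, and those below unbound RNA in every cocaine IP library 39% and 29.4%. Among the genes with a run, 7 were ribosomal protein genes, with medians of 0.11 and 0.52. The 40 initiation factor genes with a window and no run had medians of 0.39 and 0.50, and 7.5% of them were below the reference in every library of each treatment. These are descriptions over unlike numbers of genes, with no test.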
